A study of Arabidopsis thaliana with 5 samples.

Results

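The genes described here are the heat shock transcription factors of Arabidopsis thaliana and a set of heat shock chaperones: small heat shock proteins, HSP70 and HSP90 proteins, HSP101 and the immunophilin ROF2. They were chosen by a fixed list of loci, drawn up with earlier results of these data known. The list held 42 genes: 21 factors and 21 chaperones, ROF2 counted among the latter. The array probes could be matched to 25433 genes. A probe was matched for 41 of the 42; HSFB1 had none and was not analysed here. Of these 41, 39 passed the filter on dim signal, which kept a gene if all arrays of Col-0, or all of ckg, read it well above background. The genes lost were HSFA6A, well above background on 1 Col-0 and 1 ckg array, and HSFB3, on no array. Of the 39 tested genes, 35 were well above background on every array and 4, all factors, on both Col-0 arrays but not on every ckg array. No member passed the filter through the ckg arrays alone.

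Heat shock factors are transcription factors that bind heat shock elements in the promoters of chaperone genes. In plants, the HSFA1 factors are present before stress and start the response. HSFA2, HSFA7A and others are themselves induced and extend it, and most class B factors act as repressors. Small heat shock proteins hold unfolding proteins in a soluble state, HSP101 pulls proteins out of aggregates, and HSP70 and HSP90 refold and mature their client proteins. Many of these genes are described as nearly silent in unstressed leaves, whereas cognate forms such as HSC70-1 are expressed at all times. In the Col-0 samples here, however, all 21 chaperones were well above background on both arrays.

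The samples were cotyledons, the seed leaves, of 7-day-old seedlings grown in long days of 16 h light and 8 h dark. Wild-type Col-0 had 2 biological replicates and the ckg mutant 3. The genotype field of the ckg samples reads cgr mutant. The mutated gene is not in the labels; AT5G50915, which encodes a bHLH transcription factor, is named for it from general knowledge, and the sources used here do not give the allele. Each RNA was labelled with Cy3 and read on its own 1-colour Agilent array, and no heat treatment is named for either genotype.

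Levels below are log2 of the processed spot intensity minus the log2 of that array's 75th percentile, so a level of 0 is the 75th percentile of the array. The share of spots well above background was 52.4% on ckg replicate 3 and 66.7% to 70.0% on each of the other 4 arrays. The lowest intensity well above background was 157 on that array and 13.5 to 20.1 on the others. The Col-0 arrays shared slide 1 and the ckg arrays slide 2; the effect of slide and that of genotype cannot be told apart. AT5G50915 was well above background on both Col-0 arrays, with intensities of 1070 and 962, and on no ckg array (6.46, 16.5 and 51.3). Its mean log2 level was at least 29.6-fold lower in ckg, with each ckg value raised to that array's lowest signal well above background. This bound is for the group means and does not hold for ckg replicate 3 alone, where that lowest signal was 157. All 5 cotyledon mesophyll markers were well above background on all 5 arrays, with summed levels of 8.84 to 8.97 in Col-0 and 8.78 to 9.02 in ckg. Of the markers of other tissues, 0 of 5 for root, 0 of 4 for shoot apex and 0 of 6 for seed were so on all arrays. On no array at all were 3 of the root, 4 of the shoot apex and 3 of the seed markers. The root marker COBL9 was well above background on 4 arrays and the seed marker EM6 on 3. Fewer cells of a type and less RNA per cell cannot be told apart in such samples.

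Chaperone transcripts had higher signal in ckg, by more on ckg replicates 1 and 2 than on replicate 3. All 21 chaperones had a fitted ckg minus Col-0 difference above 0, where 48.7% of all 18123 genes tested did. Their median difference was 0.85 on the log2 scale, against -0.01 for all genes. In limma, 0 of the 21 passed an adjusted p of 0.05, as did 0 of all genes (0%), and 10 were higher at an unadjusted p under 0.05, against 8.3% of all genes in that direction. Among the arrays with a value, every ckg array lay above every Col-0 array for 14 of the 21, against 19.5% of all genes. Without ckg replicate 3 the count at an unadjusted p under 0.05 was 20 of 21, against 10.3% of all genes, and still 0 passed the adjusted threshold (0.0166% of all genes). On replicates 1 and 2 alone, 20 of 21 lay above Col-0 on every array with a value, against 26.4% of all genes. The count at an unadjusted p under 0.05 in limma was 6 without ckg replicate 1, against 8.31% of all genes. Without ckg replicate 2 that count was 5, against 6.48% of all genes.

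**Figure D1:**
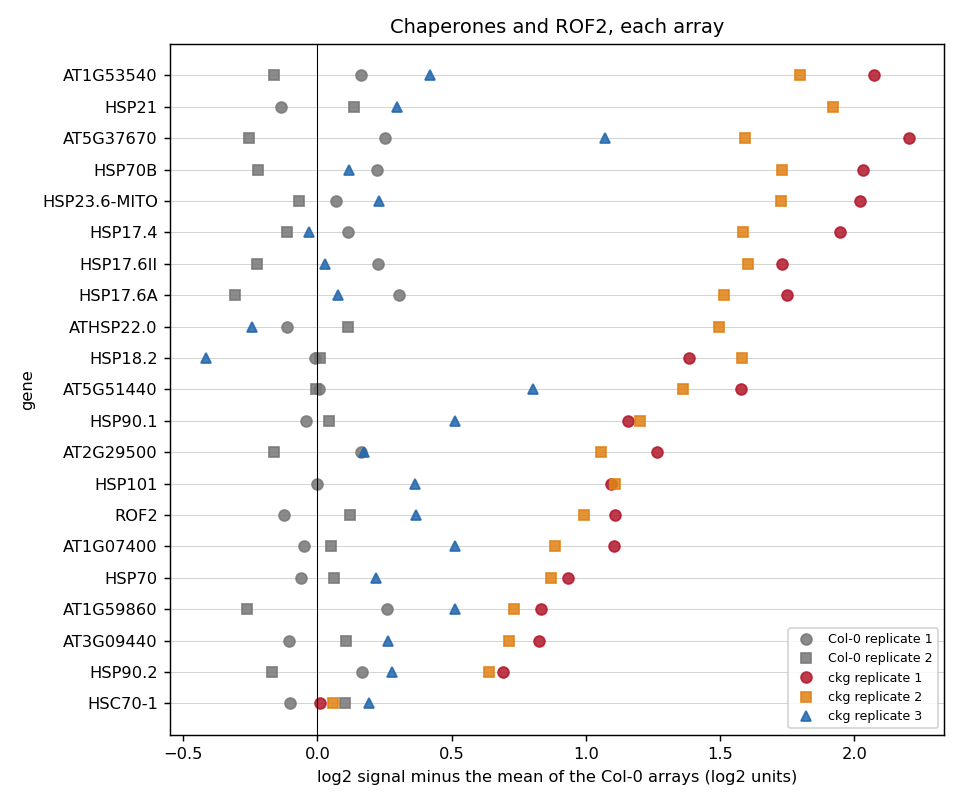
Log2 signal of the 21 chaperones on each of the 5 arrays, as the difference from the mean of the Col-0 arrays (x axis, log2 units); each row is 1 gene, ordered by the mean of ckg replicates 1 and 2, and each point is 1 array. On ckg replicates 1 and 2 the chaperones other than HSC70-1 sit 0.64 to 2.21 log2 units to the right of the Col-0 mean, while replicate 3 sits between -0.42 and 1.07.

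The 13 small heat shock proteins had a median difference of 1.11. AT5G37670, a small heat shock protein for which the gene table gives only the locus name, stood at 2.61 on Col-0 replicate 1, 0.51 lower on Col-0 replicate 2, and at 4.56, 3.94 and 3.42 on ckg replicates 1, 2 and 3. All 3 ckg arrays lay above both Col-0 arrays. The fitted difference was 1.62 ± 0.36 (limma SE), a 3.08-fold higher level, with an unadjusted p of 0.0058 and a limma adjusted p of 0.148. AT5G51440, another small heat shock protein, stood at 2.36 and 2.35 in Col-0 and at 3.93, 3.72 and 3.16 in ckg. Its Col-0 arrays were nearly equal and its ckg arrays were well apart from them, at 1.25 ± 0.24 (limma adjusted p = 0.131). AT1G07400 stood at 4.52 and 4.62 in Col-0 and at 5.68, 5.46 and 5.09 in ckg. Its difference of 0.83 ± 0.20 (limma adjusted p = 0.154) was smaller, again with no overlap between the genotypes. AT1G59860 also had every ckg array above both Col-0 arrays, with a difference of 0.69 ± 0.20, but its Col-0 arrays were 0.52 apart.

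Other small heat shock proteins were high on ckg replicates 1 and 2 alone. HSP17.4, a cytosolic protein, had levels of -0.63 and -0.86 in Col-0, 1.20 and 0.84 on ckg replicates 1 and 2, and -0.77 on replicate 3. Replicate 3 thus lay between the Col-0 arrays, and the fitted difference of 1.17 ± 0.60 (limma adjusted p = 0.366) was below 2 SE. HSP18.2, also cytosolic, had -0.72 and -0.70 in Col-0, 0.67 and 0.87 on replicates 1 and 2, and -1.13 on replicate 3. This replicate was the lowest of all 5 arrays for that gene, while replicates 1 and 2 were 1.38 and 1.58 above the Col-0 mean. HSP17.6II and HSP17.6A, neighbouring genes of the cytosolic class II proteins, both had ckg replicates 1 and 2 above the Col-0 arrays and replicate 3 between them. HSP17.6II was at 0.76 and 0.31 in Col-0 and at 2.26, 2.14 and 0.56 in ckg; HSP17.6A was at 1.03 and 0.42 in Col-0 and at 2.47, 2.24 and 0.80 in ckg. Whether the probes of such close relatives also bind each other's transcripts was not tested.

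For the proteins of organelles, replicate 3 stood in different places relative to Col-0. HSP23.6-MITO, a mitochondrial protein, was at 1.84 and 1.70 in Col-0 and at 3.79, 3.50 and 2.00 in ckg. Its replicates 1 and 2 were together 3.67-fold above the Col-0 mean and replicate 3 1.17-fold. HSP21, which protects chloroplasts in heat, was at -1.88 and -1.61 in Col-0, 0.18 on ckg replicate 2 and -1.45 on replicate 3. ATHSP22.0, a small heat shock protein of the endoplasmic reticulum, was at -1.65 and -1.42 in Col-0, -0.04 on ckg replicate 2 and -1.78 on replicate 3. For both HSP21 and ATHSP22.0 the spot on ckg replicate 1 was an outlier by the scanner software and was left out of the fit. Among the cytosolic proteins, the highest value on replicates 1 and 2 combined, 3.83-fold above the Col-0 mean, belonged to AT1G53540, which was 1.34-fold above it on replicate 3. AT2G29500 was 2.24-fold above on replicates 1 and 2 and 1.13-fold on replicate 3.

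Among the larger chaperones, HSP101 and HSP90.1 were high in both genotypes and higher in ckg. HSP101, the disaggregating chaperone needed for acquired heat tolerance, was at 4.31 on Col-0 replicate 1 and at 5.41, 5.42 and 4.68 in ckg. Its spot on Col-0 replicate 2 was an outlier and was left out, so the fitted 0.85 ± 0.36 rests on 1 Col-0 array. HSP90.1, the heat-induced cytosolic HSP90, was at 4.77 and 4.86 in Col-0 and at 5.97, 6.02 and 5.33 in ckg. The genotypes did not overlap, with a difference of 0.96 ± 0.24 (unadjusted p = 0.00918, limma adjusted p = 0.164). A dimmer probe of HSP90.1 was 1.49 and 1.18 above its Col-0 mean on ckg replicates 1 and 2 and 0.63 below it on replicate 3 (-0.63).

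ROF2, a peptidyl-prolyl isomerase that binds HSP90 and modulates HSFA2, was at 3.40 and 3.64 in Col-0 and at 4.63, 4.51 and 3.89 in ckg. All ckg arrays were above both Col-0 arrays, at 0.82 ± 0.25 (limma adjusted p = 0.204). The heat-induced HSP70 was at 4.53 and 4.65 in Col-0 and at 5.53, 5.46 and 4.81 in ckg, a difference of 0.67 ± 0.24. HSP70B, which is barely expressed without stress, was at 0.89 and 0.45 in Col-0 and at 2.70, 2.40 and 0.79 in ckg. Replicate 3 of HSP70B lay between the Col-0 arrays, whereas replicates 1 and 2 together were 3.69-fold above their mean.

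The constitutive chaperones had smaller values. HSC70-1, the main cytosolic cognate HSP70, was at 4.94 and 5.14 in Col-0 and at 5.05, 5.10 and 5.23 in ckg. The genotypes overlapped and the difference was 0.09 ± 0.12 (limma adjusted p = 0.731), slightly below 0 (-0.01) without Col-0 replicate 1. HSC70-1 had 8 probes, with differences from -0.33 to 0.73; the members with several probes were 7, and 10 of their 14 other probes had the sign of the probe used. HSP90.2, a constitutive cytosolic HSP90, was at 5.22 and 4.89 in Col-0 and at 5.75, 5.69 and 5.33 in ckg, a difference of 0.54 ± 0.18. Its second probe gave 0.35. AT3G09440, an HSP70, was at 2.87 and 3.09 in Col-0 and at 3.81, 3.69 and 3.24 in ckg, a difference of 0.60 ± 0.20, and its other probes gave 0.62 and 0.42. Both HSP90.2 and AT3G09440 had every ckg array above both Col-0 arrays. The HSP90.2 gene lies beside near-identical HSP90 genes, so its probes may read several of them.

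Of the 6 heat-inducible factors tested, 3 were higher in ckg at an unadjusted p under 0.05 in limma (8.3% of all genes) and 0 passed the adjusted threshold; of the 4 HSFA1 factors, 0 were higher or lower at that unadjusted p. Of all 18 tested factors, 0 passed the limma adjusted threshold; 4 were higher at an unadjusted p under 0.05 (8.3% of all genes) and 0 lower (9.81% of all genes). These 4 were HSFA7A, HSFA2, HSFB2A and HSFA9, of which only HSFA7A stayed under that p in every alternative run. The count was 1 without Col-0 replicate 2 and 6 without ckg replicate 3. The median difference of the 18 was 0.18. It was 0.51 for the 6 inducible factors tested, 0.05 for the 4 HSFA1 factors and 0.05 for the other 8. Every ckg array was above both Col-0 arrays for 7 factors (19.5% of all genes) and below both for 2 (22.7% of all genes). No test of chaperones against factors was made.

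**Figure D2:**
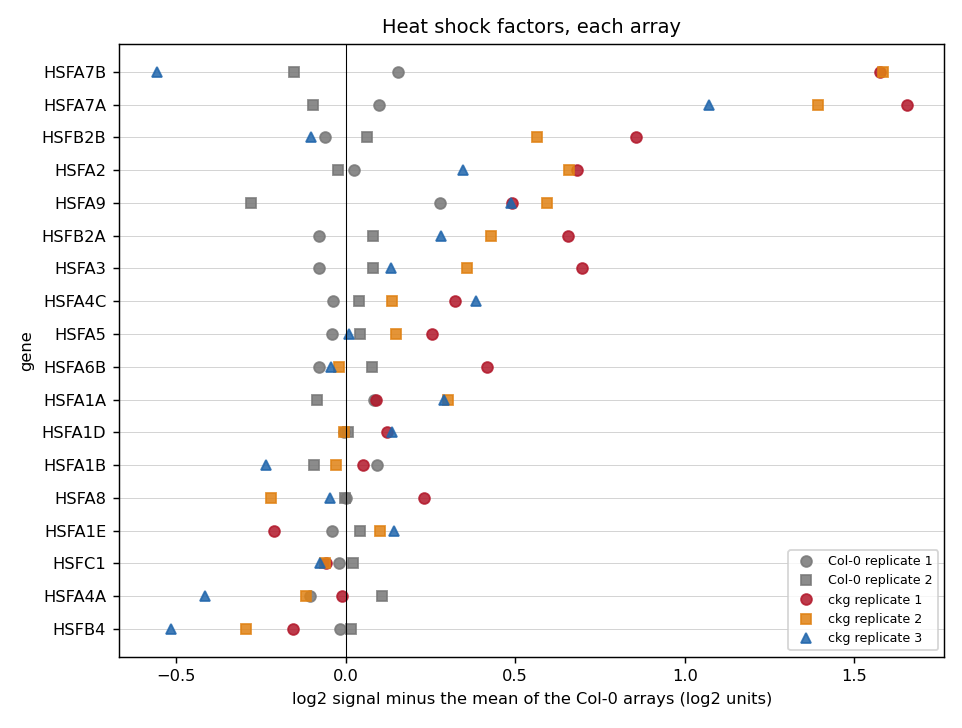
Log2 signal of the 18 tested heat shock factors on each of the 5 arrays, as the difference from the mean of the Col-0 arrays (x axis, log2 units); each row is 1 gene and each point 1 array. HSFA7A is the factor whose 3 ckg arrays all lie over 1 log2 unit above the Col-0 mean, while the ckg points of the 4 HSFA1 genes stay between -0.24 and 0.30.

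HSFA7A, a heat-induced class A factor, was at 2.69 and 2.50 in Col-0 and at 4.25, 3.99 and 3.67 in ckg. Its 3 ckg arrays lay above both Col-0 arrays, with a difference of 1.37 ± 0.20, a 2.59-fold higher level, and spread more widely (SD 0.29) than the Col-0 arrays (SD 0.14). Its unadjusted p of 0.000778 was the smallest of all members (limma adjusted p = 0.102). HSFA2, which sustains the heat response once induced, was at 5.30 and 5.25 in Col-0 and at 5.96, 5.93 and 5.62 in ckg. The genotypes did not overlap, but the difference of 0.56 ± 0.14 (limma adjusted p = 0.167) was a 1.48-fold higher level. HSFA7B, the closest relative of HSFA7A, was at -3.90 and -4.20 in Col-0, -2.47 and -2.46 on ckg replicates 1 and 2, and -4.61 on replicate 3. On replicate 3 it was not well above background, so its fitted 0.87 ± 0.71 includes 1 value near the floor. Without replicate 3 its difference was 1.58 ± 0.14. HSFA3, which acts downstream of DREB2A, was at 0.64 and 0.80 in Col-0 and at 1.41, 1.07 and 0.85 in ckg, a difference of 0.40 ± 0.19.

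Among the class B repressors, HSFB2A was at 3.09 and 3.25 in Col-0 and at 3.83, 3.60 and 3.46 in ckg. No ckg array fell within the Col-0 range, with a difference of 0.45 ± 0.15 (limma adjusted p = 0.220). HSFB2B was at 0.90 and 1.02 in Col-0, 1.82 and 1.53 on ckg replicates 1 and 2, and 0.86 on replicate 3, which lay below both Col-0 arrays. HSFB4, a regulator of root stem cell divisions, had every ckg array below both Col-0 arrays, at -0.32 ± 0.14, and was not well above background on replicate 3. HSFC1, the single class C factor, also lay below Col-0 on every ckg array, but by only -0.07 ± 0.10. Its dimmer probe did not have this order. That probe was at -0.69 and -0.81 in Col-0 and at -0.52, -0.65 and -1.20 in ckg.

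The HSFA1 factors had differences from -0.07 to 0.23. HSFA1A was at -3.32 and -3.49 in Col-0 and at -3.31, -3.10 and -3.12 in ckg (0.23 ± 0.12), with every ckg array above both Col-0 arrays, while its dimmer probe gave 0.00. HSFA1B differed by -0.07 ± 0.14, HSFA1D by 0.08 ± 0.10 and HSFA1E by 0.01 ± 0.15, each less than its SE. A dimmer probe of HSFA1B, well above background on only 4 arrays, gave -0.55, with -0.16, -0.03 and -1.46 on ckg replicates 1, 2 and 3. The mean of the HSFA1B probes gave -0.31 ± 0.29, more than its SE. The signs of HSFA1B and HSFA1E turned when other arrays or settings were used. Of the other factors, HSFA9, a seed factor, was at -5.70 and -6.26 in Col-0 and at -5.49, -5.39 and -5.49 in ckg (0.52 ± 0.19). It was not well above background on ckg replicate 3, and its difference was 0.246 without Col-0 replicate 2, 0.802 without Col-0 replicate 1 and 0.136 with quantile scaling. Its unadjusted p was over 0.05 with normexp, quantile scaling, the series table, no filter, a trended variance and the replicate block, and without Col-0 replicate 2 or any 1 ckg array. The seed markers' summed level was -5.21 to -4.11 in Col-0 and -4.28 to -3.06 in ckg, with 3 of 6 well above background on no array; the upper end of the ckg range is replicate 3, where every seed marker read below the lowest signal well above background. The part of these in the result was not tested. HSFA4C was at 0.28 ± 0.12 with no overlap, HSFA5 at 0.14 ± 0.12, HSFA6B at 0.12 ± 0.18, HSFA4A at -0.18 ± 0.16 and HSFA8 at -0.01 ± 0.16. Of these, HSFA6B was not well above background on ckg replicate 3.

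Each ckg array was then set apart against the mean of the Col-0 arrays, giving 1 value per gene and array with no test. The 18 inducible chaperones had a median of 1.48 on replicate 1 (16 with a value), 1.50 on replicate 2 and 0.26 on replicate 3. The 3 constitutive chaperones had medians of 0.69, 0.64 and 0.26. The 6 inducible factors had medians of 0.78, 0.61 and 0.21, and the 4 HSFA1 factors 0.07, 0.05 and 0.14. Medians over all genes were -0.01, -0.02 and 0.01. A value at least 1 log2 unit above Col-0 was reached by 14 inducible chaperones on replicate 1 (2.77% of all genes), 14 on replicate 2 (1.9% of all genes) and 1, AT5G37670, on replicate 3 (3.79% of all genes). No constitutive chaperone reached it on any ckg array. None of the 39 tested members lay that far below Col-0 on replicate 1 (1.83% of all genes), replicate 2 (1.3%) or replicate 3 (2.61%).

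**Figure D3:**
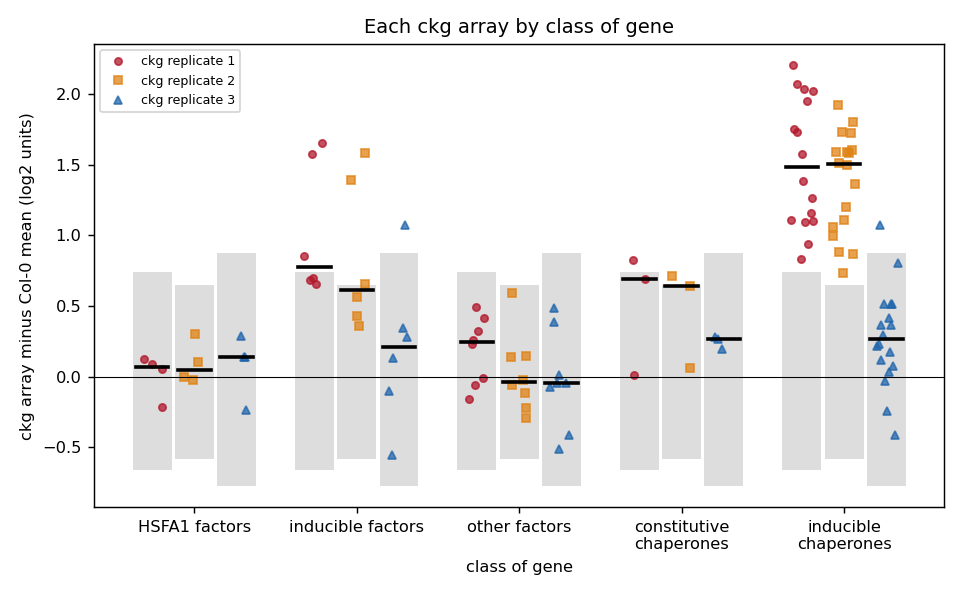
Difference of each ckg array from the Col-0 mean (y axis, log2 units) for 5 classes of gene (x axis); points are genes, black lines the medians of the class on that array, and grey bars the range from the 5th to the 95th percentile of all genes tested on that array. The inducible chaperones stand above the grey bar on replicates 1 and 2, with medians of 1.48 and 1.50, and mostly inside it on replicate 3, where the median is 0.26.

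All 18 inducible chaperones were lower on ckg replicate 3 than on both other ckg replicates, or on the 1 that had a value. The share of all genes with this order was not counted. Of the 18, 12 nonetheless had every ckg array with a value, replicate 3 included, above every Col-0 array with a value (19.5% of all genes). Among these 12, HSP101 had no value on Col-0 replicate 2 and HSP21 none on ckg replicate 1. On replicate 3, HSP17.4, HSP18.2 and ATHSP22.0 (3 of the 18) were below the Col-0 mean. Of the 18109 genes with a value there, 9274 lay above that mean. Among the 35 members well above background on every array, the highest values on replicate 3 were those of AT5G37670 (1.07), HSFA7A (1.07) and AT5G51440 (0.80). Next came AT1G07400, HSP90.1 and AT1G59860, each at 0.51. Genes with like values on replicates 1 and 2 therefore differed widely on replicate 3: HSP18.2 and AT5G51440 averaged 1.48 and 1.47 on the former and were at -0.42 and 0.80 on the latter. Among the probes used for the chaperones, the lowest intensity on replicate 3 was 648, for ATHSP22.0. It was 4.14 times the lowest signal well above background on that array. The dimmest probes of AT3G09440 and HSC70-1, not used, stood at -5.79 and -3.93 on replicate 3. Each was well above background on only 4 arrays. Among the genes brighter on average than the 75th percentile of the arrays, 1.36% lay at least 1 log2 unit above Col-0 on replicate 3, 1.87% on replicate 1 and 1.22% on replicate 2.

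**Figure D4:**
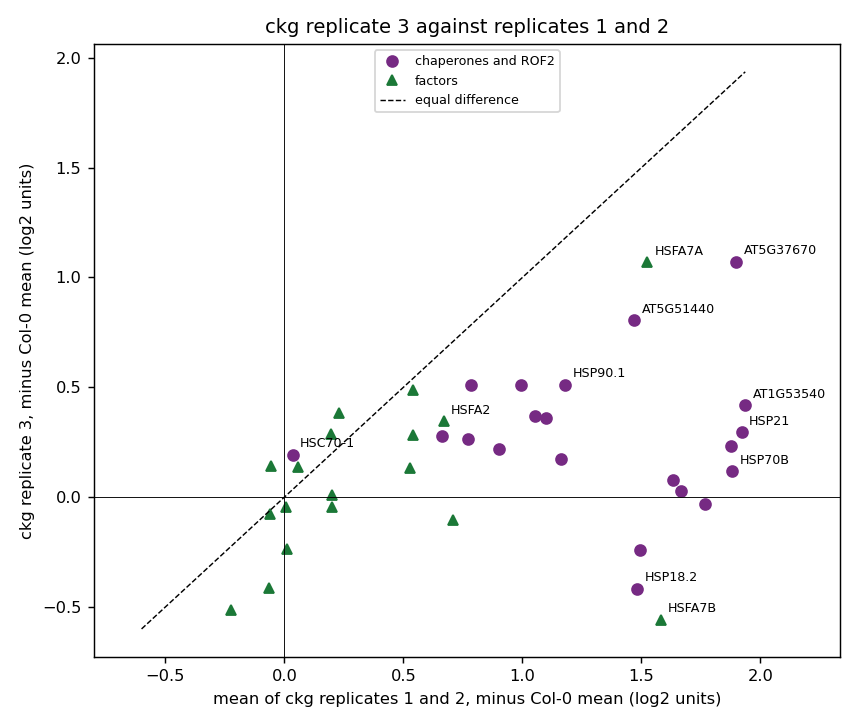
Difference from the Col-0 mean on ckg replicate 3 (y axis) against the mean difference on ckg replicates 1 and 2 (x axis), both in log2 units, for the 39 tested genes; the dashed line marks equal differences. Both axes subtract the same Col-0 arrays. The inducible chaperones lie below the line, with HSFA7A, AT5G37670 and AT5G51440 at 1.07, 1.07 and 0.80 on replicate 3 and HSP18.2 at -0.42.

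Of 17 other genes of the heat response tested, 10 were higher at an unadjusted p under 0.05 in limma (8.3% of all genes), 0 lower (9.81%), and 0 passed the adjusted threshold. Their median difference was 0.89, with medians of 1.22, 1.08 and 0.46 on ckg replicates 1, 2 and 3. HOP3, a co-chaperone linking HSP70 and HSP90, was at 3.57 and 3.54 in Col-0 and at 4.91, 4.79 and 4.47 in ckg (1.17 ± 0.16). APX2, a heat-induced ascorbate peroxidase, was at 0.90 ± 0.20 and AT4G21870 at 0.62 ± 0.15; APX2 was not well above background on ckg replicate 3. Every ckg array of HOP3 and AT4G21870 was above both Col-0 arrays, as were ckg replicates 1 and 2 of APX2. The count was 15 without ckg replicate 3, 7 without replicate 1, 5 without replicate 2, and 4 and 5 without Col-0 replicates 1 and 2.

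Among other HSP70 and HSP90 proteins and their co-chaperones, 8 of 18 were higher at an unadjusted p under 0.05 (8.3% of all genes) and 0 lower (9.81%), with 0 past limma's adjusted threshold. The count was 3 without Col-0 replicate 1, 5 without ckg replicate 2, 4 with the mean of each gene's probes and 5 with no filter on dim probes. MTHSC70-2, a mitochondrial HSP70, was 1.84, 1.47 and 1.11 above the Col-0 mean on ckg replicates 1, 2 and 3. Its difference of 1.48 ± 0.26 thus exceeded 1 log2 unit on every ckg array. HSP70-2 was at 0.93 ± 0.22 and J3, a DnaJ partner of HSP70, at 0.49 ± 0.11. The plastid proteins CPHSC70-1 (0.03 ± 0.10), CPHSC70-2 (0.22 ± 0.14) and HSP90.5 (0.11 ± 0.11) had smaller values.

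Of 15 genes of the endoplasmic reticulum's unfolded protein response tested, which include the transcription factors BZIP28 and BZIP60, 6 were lower at an unadjusted p under 0.05 (9.81% of all genes) and 0 higher (8.3%), with 0 past limma's adjusted threshold and a median difference of -0.24. The 6 became 3 without Col-0 replicate 1 or without ckg replicate 2. SDF2 was at 2.08 and 1.99 in Col-0 and at 1.40, 1.29 and 1.36 in ckg (-0.69 ± 0.10). PDIL1-1, a protein disulfide isomerase, was at -0.59 ± 0.11, and CRT1B, a calreticulin, at -0.51 ± 0.10. In these 3 all ckg arrays were below both Col-0 arrays, and replicate 3 lay close to the other ckg replicates. The luminal HSP70 genes BIP1 (-0.04 ± 0.10) and BIP2 (-0.15 ± 0.19) were nearer 0. BZIP28 (0.31 ± 0.24) and BIP3 (0.05 ± 0.39) were the 2 with a fitted difference above 0. Of 9 oxidative stress genes tested, 2 were higher at an unadjusted p under 0.05 (8.3% of all genes) and 0 lower, and 0 without Col-0 replicate 1; the 3 with the smallest p were GSTU24 (0.49 ± 0.15), the catalase CAT2 (0.31 ± 0.12) and the superoxide dismutase FSD1 (-0.43 ± 0.18).

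**Figure D5:**
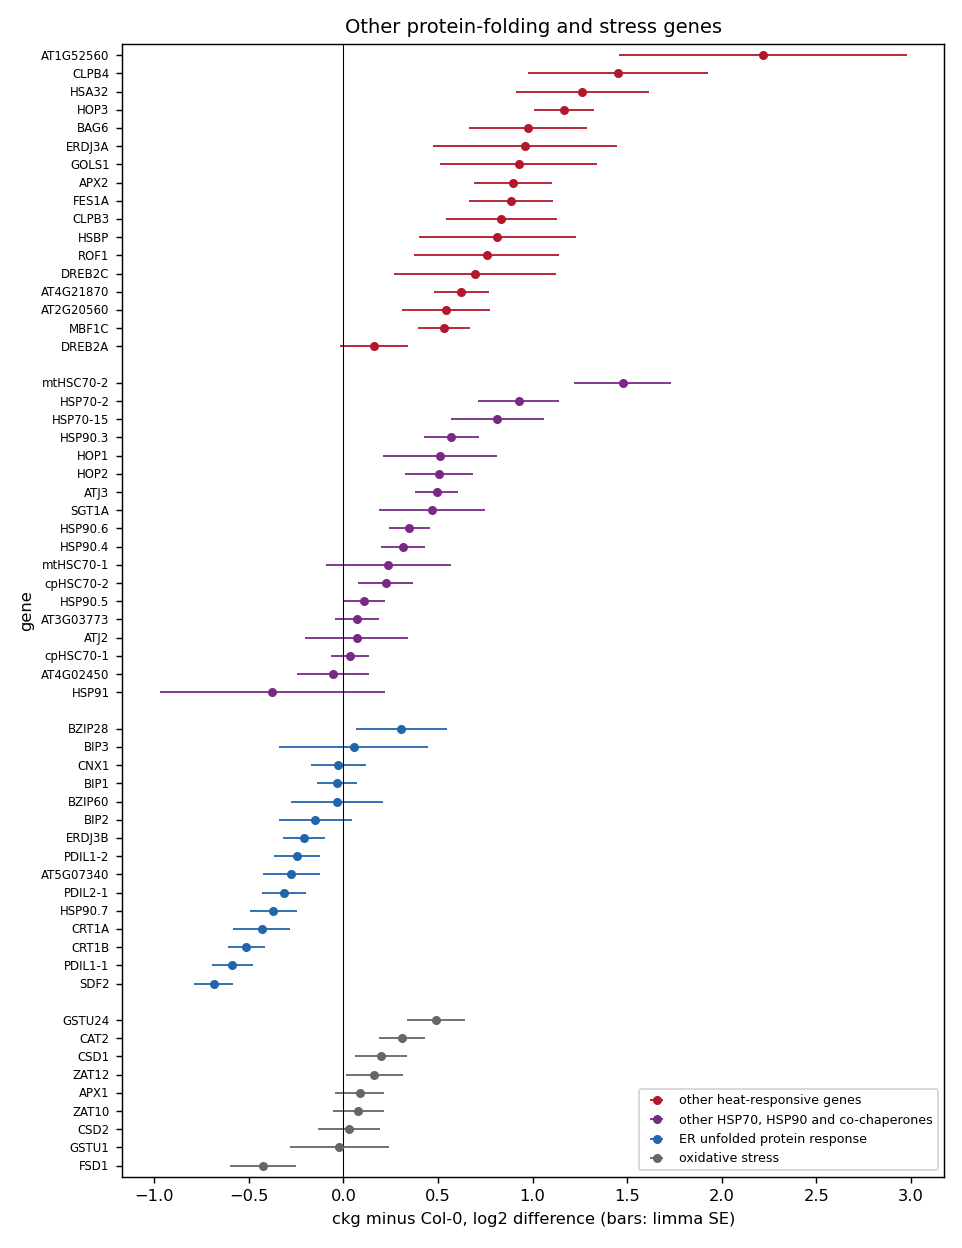
Fitted ckg minus Col-0 difference (x axis, log2 units) of the genes in 4 other lists; each row is 1 gene and bars are limma SE. The 17 heat-responsive genes lie above 0, while all but 2 of the 15 endoplasmic reticulum genes lie below it, down to -0.69 for SDF2.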

How the data were processed

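Per the file headers, the authors' deposited intensity values were made by Feature Extraction 10.7.1.1 (Agilent), which subtracted the background and detrended each array, with no scaling between arrays; the processed intensity was used. Raw median and local background intensities served 1 alternative. Other deposited columns are flags of 0 or 1 per spot. The authors' deposited series table holds log2 levels with scale and centring not stated; their ranks were those of the array's raw median intensities (Spearman rho of 1), and the median of each column was 8.41.

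Here the log2 intensity minus the array's 75th percentile was used, over 43603 probes, 34358 of them matched to loci of TAIR10.1 without versions. Outlier spots were left out (35 to 197 per array); 0 spots were saturated. A gene with several probes is given by its brightest. Genes that all arrays of Col-0, or all of ckg, read well above background were tested with limma 3.58.1 in R 4.3.3 (lmFit and eBayes, two-sided, Benjamini-Hochberg over 18123 genes, threshold 0.05). Precision is limited by the number of arrays, which leaves 3 residual degrees of freedom. Exact permutation of these groups cannot give a p below 0.1 and was not used. All members are described; from each other list the 3 genes with the smallest p are named, and other genes named were chosen after their values were seen. The members and lists were chosen with earlier results of these data known. Genes with no symbol in the table are called by locus. The alternatives were other scalings, another background correction, other filters on dim probes, outlier spots kept, the mean of probes, another variance model, other thresholds, the series table, a replicate block, and each array left out.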

Additional observations from a re-analysis of the deposited data

How the results depend on the processing

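In the main limma run, 14 of 39 members were higher at an unadjusted p under 0.05 (8.3% of all genes) and 0 lower (9.81%). Without ckg replicate 3, 26 were higher, against 10.3% of all genes. No member passed an adjusted p of 0.05 in the main run or under any alternative. Over all genes the 0 became 3 with normexp, 1 with median scaling, 3 with the authors' series table, 4 with a trended robust variance, 130 at an adjusted p of 0.10, and 0 to 8 when 1 array was left out. The 10 chaperones higher at an unadjusted p under 0.05 became 6 with no filter on dim probes, 4 at an unadjusted p of 0.01 and 5 to 20 when 1 array was left out. The 4 factors became 2 with the authors' series table, 2 at an unadjusted p of 0.01 and 1 to 6 when 1 array was left out. The factor median of 0.182 was 0.0701 with the authors' series table, and the chaperone median of 0.855 was 0.735 to 1.47 with single arrays omitted, 1.47 being without ckg replicate 3. With no filter on dim probes the median of all genes was 0.12, so differences there are relative to that shift.

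Of 39 tested members, 33 kept their sign under every alternative in which they were fitted. HSP101 could not be fitted without Col-0 replicate 1, its only Col-0 value. The filter on all 5 arrays left out HSFA7B, HSFA9, HSFB4 and HSFA6B. HSFA1B was 0.0115 with the replicate block and -0.164 to 0.0221 with 1 array left out. HSFA1E was -0.00286 with median scaling, -0.0558 with the replicate block and -0.0558 to 0.121 with 1 array left out. HSFA6B was -0.0913 with quantile scaling, -0.127 with the series table and -0.0319 to 0.198 with 1 array left out. HSFA8 was 0.00616 with the replicate block and -0.133 to 0.0926 with 1 array left out. With 1 array left out, HSC70-1 was -0.0143 to 0.189 and ATHSP22.0 -0.243 to 1.50; the lowest ATHSP22.0 value is that without ckg replicate 2, which leaves replicate 3 as its only ckg value. The cause of the other reversals was not tested.

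The genotypes share replicate numbers 1 and 2, and no label says that a number marks a shared batch. Deviations of same-numbered arrays from their group means correlated at -0.09 for pair 1 and -0.10 for pair 2, across genes. As the deviations of the 2 Col-0 arrays mirror each other, pairs of unlike number gave 0.09 and 0.10 by construction. These values cannot decide whether a batch was shared. With the replicate number as a block, 20 chaperones were higher at an unadjusted p under 0.05, against 7.87% of all genes; as Col-0 has no replicate 3, this fit takes its difference from replicates 1 and 2 alone.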
